A study of Homo sapiens with 4 samples.

Results

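The genes described here were the E2F transcription factors E2F1 to E2F8 and the retinoblastoma family members RB1 and RBL1 (encoding p107), 10 of the 43622 genes in the deposited expression table. They were taken by name, and every member was present in the table and passed the filter on low values. All values came from RNA-seq of PC3, an established human prostate adenocarcinoma line, and of PC3-shp14ARF, the same line carrying an shRNA against the tumor suppressor p14ARF, after 3 days with 1 µM MLN4924 or its vehicle DMSO. MLN4924 inhibits the NEDD8-activating enzyme and thereby the cullin-RING ubiquitin ligases. There were 4 conditions of 3 libraries each. These were PC3 with DMSO (Ctrl), PC3 with MLN4924 (MLN), PC3-shp14ARF with DMSO (shARF) and PC3-shp14ARF with MLN4924 (Both). The series asked which responses of PC3 cells to MLN4924 depend on p14ARF. The PC3-shp14ARF cells were made by retroviral transduction and hygromycin selection, and no PC3 line with a control shRNA was among the samples. Transduction and selection therefore cannot be told apart from the loss of p14ARF in any comparison of the lines. The design text calls the modified cells a knockout and gives the dose in mM, whereas the sample labels give an shRNA and µM.

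E2F proteins bind the promoters of genes needed for DNA replication and cell division, mostly as dimers with a DP partner. E2F1, E2F2 and E2F3 are classed as activators and are held in check by RB1, whose phosphorylation by cyclin-dependent kinases releases them at the entry to S phase. E2F4 and E2F5 mainly repress in quiescent and G1 cells together with RBL1 or RBL2, E2F6 represses through polycomb proteins without a pocket protein, and E2F7 and E2F8 are atypical repressors that bind DNA without DP and are themselves E2F targets. p14ARF restrains MDM2 and has also been tied to E2F1 turnover, and cullin-RING ligases degrade several proteins of this pathway.

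The values were TPM, a measure of transcript abundance relative to the whole library scaled for transcript length, so that levels could be compared between genes, and every library summed to 1000000. Read depth was not given with these values. CDKN2A, which encodes both p14ARF and the CDK4/6 inhibitor p16INK4a, stood at 177 to 190 TPM in Ctrl and 58.2 to 60.9 TPM in shARF. Its level was 100 to 133 TPM in MLN and 41.2 to 54.0 TPM in Both, and gene-level values do not separate its products. All 5 epithelial markers checked were expressed, with a summed level of 907 to 1004 TPM in Ctrl and 1138 to 1280 TPM in shARF, against 439 to 504 TPM in MLN and 433 to 450 TPM in Both. With MLN4924 4 of the 5 were called lower in PC3 and 5 of 5 in PC3-shp14ARF, where 29.4% and 32.8% of all genes were called lower. The part of these markers in the changes of the E2F and retinoblastoma genes was not tested. Of the 4 prostate luminal markers, HOXB13 was high (64.4 to 755 TPM as condition means) and KLK3 was listed at 0 in every library. Leukocyte markers summed to at most 1.07 TPM, endothelial markers to 0.160 to 12.6 TPM, nearly all of it PECAM1 in Ctrl, and fibroblast markers to 5.09 to 22.1 TPM. The mitochondrial share of TPM ran from 7.85 to 10.9% in Ctrl, 8.43 to 12.9% in MLN, 6.04 to 8.03% in shARF and 10.2 to 13.2% in Both. No 2 libraries held identical values.

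Several members carry the DNA sequence bound by their own family next to their start sites, and the upstream 250 bases of the 4 with such a match are printed here, 5′ to 3′ on the gene's strand, because their transcripts later moved in different directions. The sequences are RefSeq promoters on GRCh38.p14, ending at the base before the annotated start. Capitals mark an exact match to TTTCCCGC, TTTCGCGC, TTTGCCGC or TTTGGCGC on either strand.
E2F1, chr20:33686386-33686635, minus strand: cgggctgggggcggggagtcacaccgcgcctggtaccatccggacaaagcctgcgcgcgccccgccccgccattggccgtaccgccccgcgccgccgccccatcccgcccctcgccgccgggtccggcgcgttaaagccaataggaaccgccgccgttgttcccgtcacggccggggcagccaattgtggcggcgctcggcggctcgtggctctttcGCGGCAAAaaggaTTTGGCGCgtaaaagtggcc
E2F2, chr1:23531234-23531483, minus strand: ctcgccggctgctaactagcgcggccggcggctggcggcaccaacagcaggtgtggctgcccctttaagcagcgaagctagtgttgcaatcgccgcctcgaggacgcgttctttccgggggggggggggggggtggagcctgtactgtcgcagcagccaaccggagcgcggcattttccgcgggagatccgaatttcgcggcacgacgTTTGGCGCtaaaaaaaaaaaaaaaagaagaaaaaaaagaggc
E2F3, chr6:20401629-20401878, plus strand: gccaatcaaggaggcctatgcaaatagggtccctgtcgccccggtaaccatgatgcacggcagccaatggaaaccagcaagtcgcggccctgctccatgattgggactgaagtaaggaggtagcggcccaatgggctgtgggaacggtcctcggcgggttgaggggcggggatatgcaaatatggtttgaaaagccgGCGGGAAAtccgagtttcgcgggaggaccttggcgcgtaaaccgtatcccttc
RBL1, chr20:37095998-37096247, minus strand: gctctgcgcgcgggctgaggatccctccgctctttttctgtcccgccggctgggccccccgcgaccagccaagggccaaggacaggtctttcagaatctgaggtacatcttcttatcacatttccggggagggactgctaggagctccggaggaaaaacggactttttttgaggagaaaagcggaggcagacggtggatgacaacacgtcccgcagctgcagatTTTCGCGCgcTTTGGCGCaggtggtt
E2F1 held 2 matches, TTTGCCGC on the opposite strand at −33 to −26 from the start and TTTGGCGC on the same strand at −20 to −13. RBL1 also held 2, TTTCGCGC at −26 to −19 and TTTGGCGC at −16 to −9, both on its own strand. E2F2 held TTTGGCGC at −42 to −35, and E2F3 held TTTCCCGC on the opposite strand at −53 to −46. The E2F3 window also contained TTTGAA, a form of the CHR element of late cell cycle promoters, at −65 to −60. No match to these letters lay within the same window of E2F4, E2F6 or E2F7. Over all 35116 RefSeq promoter windows of 300 bases (250 before to 50 after the start), 1164 (3.31%) held an E2F match. RefSeq windows were matched for 8 members and those of E2F1, E2F2, E2F4, E2F6, E2F7 and RBL1 lay at or near the GENCODE gene start. E2F3 had 2 windows, the printed window at the gene start and another 1735 bases inside the gene with no match to either motif, and the window listed for RB1 lay 172706 bases inside the gene and was not used as its promoter.

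In untreated PC3 cells E2F4 was the most abundant member at 104 ± 6.13 TPM (mean ± SD, n = 3 libraries here and below). E2F3 (33.1 ± 2.76 TPM) and E2F1 (31.2 ± 3.93 TPM) followed, with overlapping libraries. RB1 (21.4 ± 1.60 TPM), E2F7 (20.7 ± 1.27 TPM) and E2F6 (20.2 ± 1.45 TPM) could not be ordered beyond their spread. RBL1 (19.0 ± 0.155 TPM), E2F5 (14.9 ± 1.10 TPM) and E2F8 (5.84 ± 0.919 TPM) were lower, and E2F2 was the lowest at 1.59 ± 0.344 TPM. With MLN4924 E2F1 (149 ± 12.7 TPM) overlapped E2F4 (147 ± 11.7 TPM) at the top of the order, and E2F5 (4.85 ± 0.263 TPM) was the lowest. In shARF cells E2F4 (125 ± 5.94 TPM) was still above E2F1 (72.4 ± 7.02 TPM), with E2F8 (6.72 ± 1.03 TPM) and E2F2 (6.03 ± 0.670 TPM) at the bottom. In Both the order again opened with E2F1 (149 ± 13.9 TPM) and E2F4 (137 ± 7.48 TPM), which overlapped, and closed with E2F5 (10.2 ± 1.74 TPM) and RBL1 (8.67 ± 0.884 TPM), which also overlapped.

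**Figure D1:**
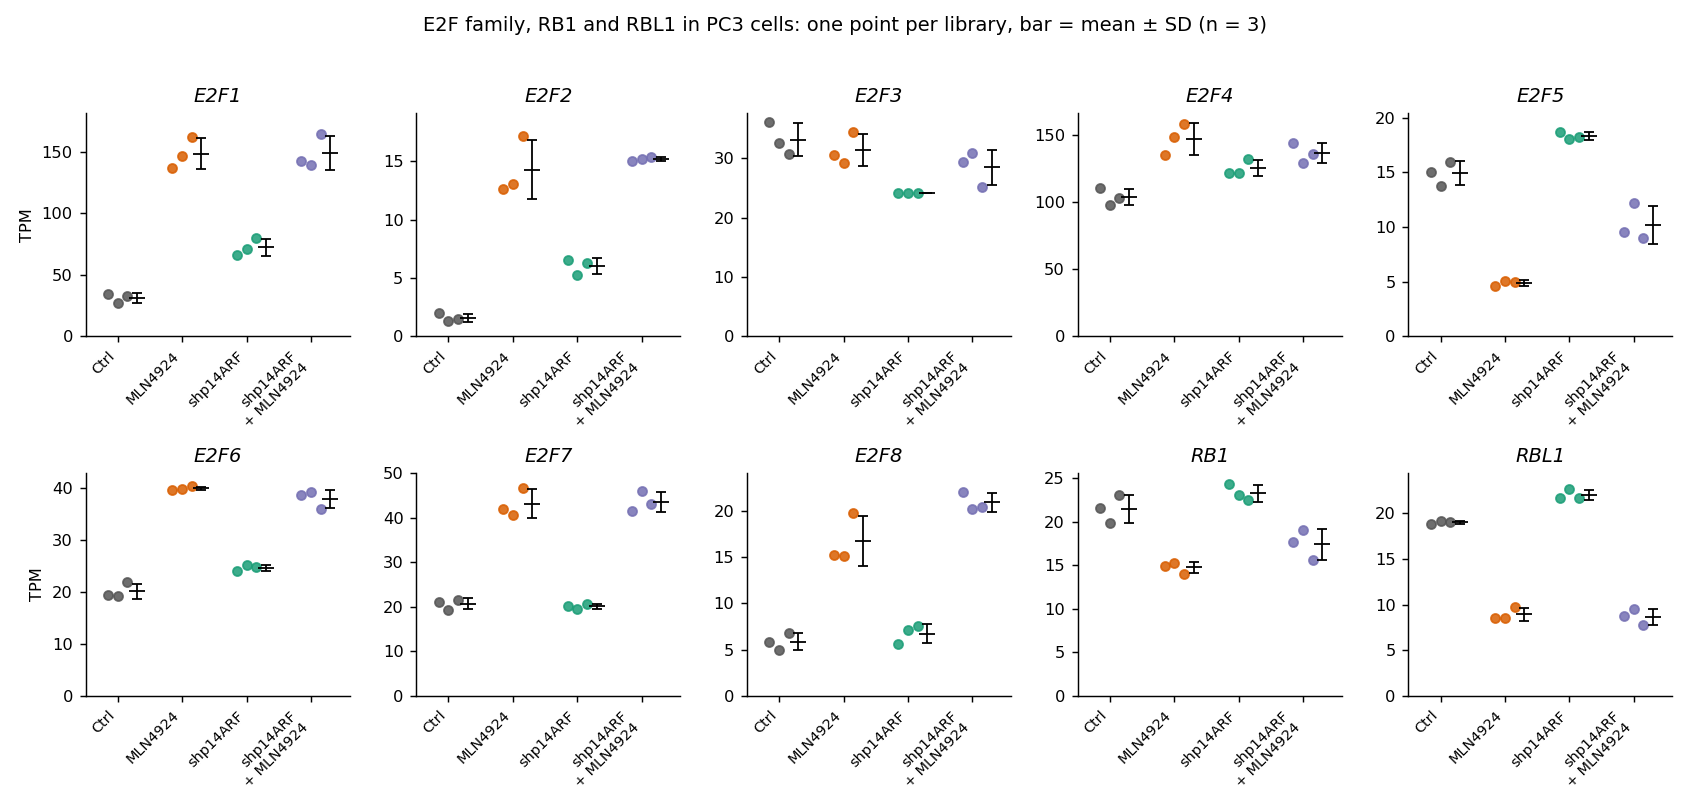
TPM of each of the 10 members (y axis, from 0, scale set per gene) in the 4 conditions (x axis), with a point per library and a bar for mean ± SD (n = 3). E2F1 and E2F2 climbed from Ctrl through shARF to the MLN4924-treated conditions, E2F5 was at its lowest in MLN, and RBL1 was lower in every MLN4924 library than in any DMSO library.

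In PC3 cells MLN4924 was followed by higher transcript levels of 2 of the 3 activators, of E2F4 and E2F6 and of both atypical repressors, and by lower levels of E2F5 and of both retinoblastoma family members. By limma on log2(TPM + 0.1), with calls made at an adjusted p of 0.05, 6 members were higher and 3 were lower. Of the 19932 genes in that fit, 32.2% were called higher and 29.4% lower, so a call by itself was common. The members' median log2 fold change was 0.74, against 0.052 over all genes. Because these are bulk samples, more cells with a transcript and more transcript per cell cannot be told apart.

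E2F1, whose protein can drive both S phase entry and apoptosis, lies at chr20:33675477-33686385 on the minus strand (GRCh38, GENCODE). It was at 34.4, 26.8 and 32.5 TPM in the Ctrl libraries and at 137, 147 and 162 TPM in the MLN libraries. The groups were far apart, with a 4.76-fold higher level on the log2(TPM + 0.1) scale (log2 fold change 2.25, SE 0.11, adjusted p = 2.14e-05). E2F2, another activator, at chr1:23506438-23531233, had the largest rise of the 10, from 1.98, 1.32 and 1.48 TPM to 12.6, 13.1 and 17.2 TPM. Its log2 fold change was 3.10 (SE 0.19, adjusted p = 4.67e-05), and MLN replicate 5 was its highest library. E2F3, at chr6:20401879-20493714, was at 36.1, 32.6 and 30.7 TPM in Ctrl and 30.6, 29.2 and 34.5 TPM in MLN. These groups overlapped, and the difference of −0.078 on the log2 scale (95% interval −0.30 to 0.14, adjusted p = 0.483) did not pass the test.

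Among the repressors that work with pocket proteins, E2F4 and E2F5 moved in opposite directions. E2F4, at chr16:67192155-67198918, was at 110, 98.3 and 104 TPM in Ctrl and 135, 148 and 159 TPM in MLN, a log2 fold change of 0.50 (SE 0.076, adjusted p = 0.00177). E2F5 fell from 15, 13.8 and 15.9 TPM to 4.56, 5.05 and 4.96 TPM. That was 3.02-fold lower (log2 fold change −1.60, SE 0.085, adjusted p = 2.75e-05), the steepest drop among the members. The level of E2F4 relative to E2F5 went from 7.0 ± 0.452 in Ctrl to 30.4 ± 1.40 in MLN. In the annotation 997 of the 5999 exonic bases of E2F5 (16.6%) overlap RBIS on the opposite strand, and since strand-specific counting was not stated, reads of the pair cannot be told apart there. RBIS, listed under its older name C8orf59, stood at 40.1 ± 6.69 TPM in Ctrl and 36.6 ± 8.71 TPM in MLN (52.3 ± 6.26 and 51.0 ± 7.07 TPM in shARF and Both), and its part in the E2F5 values was not tested.

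E2F6, the polycomb-linked repressor, at chr2:11444375-11466177, was at 19.4, 19.3 and 21.9 TPM in Ctrl and 39.7, 39.9 and 40.4 TPM in MLN (log2 fold change 0.99, SE 0.062, adjusted p = 4.77e-05). The atypical repressor E2F7, at chr12:77021248-77065569, was at 21.2, 19.2 and 21.6 TPM in Ctrl and 42.0, 40.7 and 46.8 TPM in MLN (log2 fold change 1.06, SE 0.076, adjusted p = 7.90e-05). E2F8, its closest relative, at chr11:19224063-19241620, was at 5.85, 4.91 and 6.75 TPM against 15.3, 15.1 and 19.8 TPM (log2 fold change 1.5, SE 0.16, adjusted p = 0.000378). For these 3 genes no MLN library overlapped a Ctrl library. Among the MLN libraries, replicate 5 was the highest for each of the 6 members that rose.

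Both pocket protein genes measured here fell. RB1, at chr13:48303744-48599436, went from 21.5, 19.8 and 23 TPM to 14.9, 15.3 and 14.0 TPM, a log2 fold change of −0.54 (SE 0.074, adjusted p = 0.00113). RBL1, at chr20:36996349-37095997, went from 18.9, 19.2 and 19.1 TPM to 8.53, 8.51 and 9.73 TPM, a log2 fold change of −1.09 (SE 0.071, adjusted p = 5.56e-05). RBL1 thus moved opposite to E2F1 and E2F2, although the windows printed for all 3 hold matches to the same E2F letters. The level of E2F1 relative to RB1 was 1.45 ± 0.127 in Ctrl and 10.1 ± 1.29 in MLN.

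The make-up of the family's transcripts changed along with its total. Summed over E2F1 to E2F8 the level went from Ctrl (232 ± 14.3 TPM) to MLN (446 ± 34.5 TPM) and from shARF (298 ± 14.2 TPM) to Both (442 ± 8.95 TPM). The activators E2F1 to E2F3 made up 28.4 ± 1.09% of that sum in Ctrl and 43.5 ± 0.550% in MLN, with 34.4 ± 0.736% in shARF and 43.6 ± 1.82% in Both. E2F4 and E2F5 made up 51.4 ± 0.406%, 34.1 ± 0.794%, 48.3 ± 0.623% and 33.2 ± 1.29% in the same order. The libraries of Ctrl and of shARF each stood apart from all MLN4924 libraries in both shares. E2F7 and E2F8 together held 11.4 ± 0.577% in Ctrl and 9.02 ± 0.0974% in shARF, against 13.4 ± 0.595% in MLN and 14.6 ± 0.649% in Both. E2F6 kept a similar share throughout, between 8.29 and 8.99% as condition means. With exact permutation of 3 against 3 libraries no such share could reach a p below 0.10, so these values were not tested.

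In PC3-shp14ARF cells MLN4924 again raised E2F1, E2F2, E2F6, E2F7 and E2F8 and lowered E2F5, RB1 and RBL1. With E2F3, 6 members were called higher and 3 lower, where 28.3% of all genes were higher and 32.8% lower. The members' median log2 fold change was 0.43, against −0.038 over all genes. E2F1 went from 66.3, 70.9 and 80.1 TPM in shARF to 143, 139 and 165 TPM in Both (log2 fold change 1.04, SE 0.095, adjusted p = 0.000216). E2F2 went from 6.52, 5.27 and 6.31 TPM to 15, 15.2 and 15.4 TPM (1.32, SE 0.092, adjusted p = 7.08e-05). In both genes the groups did not overlap, and their starting level under DMSO was already above that of PC3 cells.

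E2F7 (20.2, 19.6 and 20.7 TPM in shARF against 41.6, 46.0 and 43.0 TPM in Both) and E2F8 (5.55, 7.09 and 7.51 TPM against 22.1, 20.3 and 20.4 TPM) had log2 fold changes of 1.11 (SE 0.051, adjusted p = 1.63e-05) and 1.63 (SE 0.12, adjusted p = 9.28e-05). E2F6 went from 24.0, 25.2 and 24.8 TPM to 38.7, 39.2 and 36.0 TPM (0.62, SE 0.048, adjusted p = 0.000108). The 3 genes were each higher in every Both library than in any shARF library. E2F5 fell from 18.7, 18.1 and 18.2 TPM to 9.5, 12.2 and 8.94 TPM (−0.85, SE 0.12, adjusted p = 0.00136). RBL1 fell from 21.7, 22.7 and 21.7 TPM to 8.75, 9.51 and 7.75 TPM (−1.34, SE 0.083, adjusted p = 4.61e-05), and RB1 from 24.3, 23 and 22.4 TPM to 17.6, 19.0 and 15.5 TPM (−0.42, SE 0.084, adjusted p = 0.00579).

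The remaining pair sat near the threshold. E2F3 was at 24.1 TPM in each shARF library and at 29.3, 30.9 and 25.1 TPM in Both, and its difference of 0.23 (SE 0.081, adjusted p = 0.0482) was lost under 8 of 13 alternatives. Leaving out Both replicate 2 gave an adjusted p of 0.137 and leaving out Both replicate 3 an adjusted p of 0.116. It was also lost without shARF replicate 1, 3 or 5 (adjusted p of 0.118, 0.113 and 0.115). E2F4 was at 122, 122 and 132 TPM in shARF and 144, 129 and 136 TPM in Both, which overlapped (0.12, 95% interval −0.017 to 0.26, adjusted p = 0.109). It passed when TPM were rescaled by median of ratios (0.22, adjusted p = 0.0182).

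Under DMSO the shRNA alone went with higher E2F1 and E2F2. Comparing shARF with Ctrl, 6 members were higher and 1 was lower, where 21.0% of all genes were higher and 20.4% lower. This comparison shares the Ctrl libraries with that of MLN against Ctrl, and the shARF libraries with that of Both against shARF. E2F1 rose 2.32-fold (log2 fold change 1.21, SE 0.12, adjusted p = 0.00130) and E2F2 3.66-fold (1.87, SE 0.18, adjusted p = 0.00124), with no overlap between libraries in either gene. E2F3, the third activator, was lower in every shARF library (−0.45, SE 0.063, adjusted p = 0.00398).

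Smaller differences were called for E2F4 (0.27, SE 0.057, adjusted p = 0.0165), E2F5 (0.30, SE 0.061, adjusted p = 0.0141), E2F6 (0.29, SE 0.059, adjusted p = 0.0140) and RBL1 (0.21, SE 0.029, adjusted p = 0.00422), all higher in shARF. The call for E2F4 was lost without Ctrl replicate 3 (adjusted p = 0.0576), that for E2F5 without shARF replicate 1 (adjusted p = 0.0549) and that for E2F6 without shARF replicate 3 (adjusted p = 0.0520). E2F7 (−0.036, 95% interval −0.17 to 0.10, adjusted p = 0.647), E2F8 (0.20, 95% interval −0.23 to 0.63, adjusted p = 0.410) and RB1 (0.12, 95% interval −0.050 to 0.29, adjusted p = 0.214) did not pass. The intervals of both atypical repressors excluded a rise of the size seen for E2F1. The level of E2F7 relative to E2F1 was 0.666 ± 0.0505 in Ctrl and 0.280 ± 0.0233 in shARF, with 0.291 ± 0.0152 in MLN and 0.294 ± 0.0350 in Both.

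With MLN4924 present, the 2 lines differed in E2F5. It was at 4.56 to 5.05 TPM in MLN and 8.94 to 12.2 TPM in Both, 2.06-fold higher in the PC3-shp14ARF line (log2 fold change 1.05, SE 0.13, adjusted p = 0.00324). It was the only member called by limma in this comparison, where 11.8% of all genes were higher and 20.6% lower. E2F1 differed by 0.0044 (95% interval −0.23 to 0.23, adjusted p = 0.988) and E2F2 by 0.10 (95% interval −0.21 to 0.41, adjusted p = 0.576), so that a difference between the treated lines of the size seen under DMSO lay outside both intervals. E2F8 (0.33, adjusted p = 0.0807) and RB1 (0.23, adjusted p = 0.0967) were higher in every Both library than in any MLN library without passing the test, and E2F6 (−0.075, adjusted p = 0.307) was lower in every Both library, also without passing.

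The remaining differences between Both and MLN were −0.14 for E2F3, −0.11 for E2F4, 0.015 for E2F7 and −0.042 for RBL1, with adjusted p of 0.328 or more. Without MLN replicate 5, E2F2 (0.24, adjusted p = 0.0424) and E2F8 (0.46, adjusted p = 0.0139) were called as well, and without Both replicate 4 RB1 was (0.31, adjusted p = 0.0374). Under median-of-ratios scaling E2F8 (0.42, adjusted p = 0.0336) and RB1 (0.33, adjusted p = 0.0221) passed, while the uncalled E2F6 and RBL1 changed sign. That scaling moved the higher share of all calls from 36.4 to 51.4% here.

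**Figure D2:**
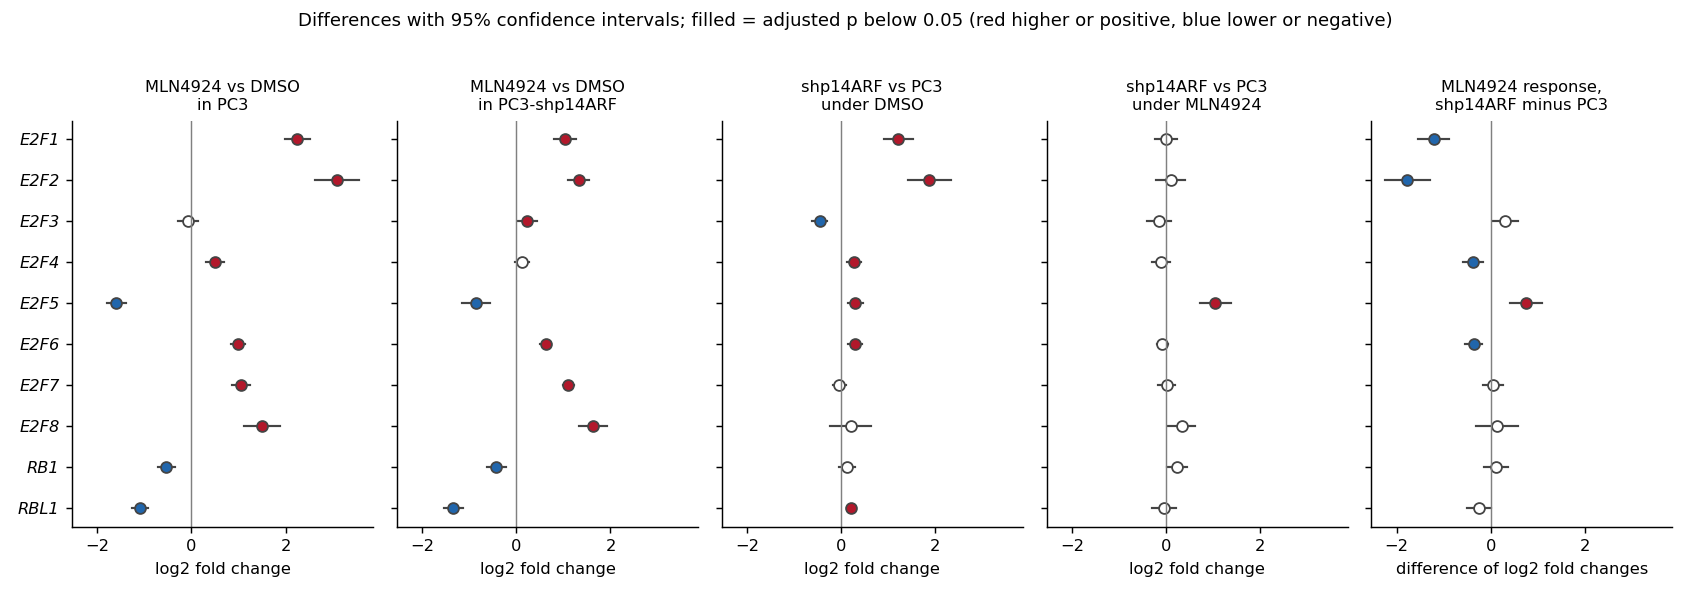
Log2 fold change of each member (x axis, points, with 95% confidence intervals as lines) for the 4 pairwise comparisons, and in the last panel the MLN4924 response of PC3-shp14ARF minus that of PC3. Filled points passed an adjusted p of 0.05, with E2F1 at 2.25 in PC3 and 1.04 in PC3-shp14ARF and E2F5 at −1.60 and −0.85.

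The test of the difference itself, the MLN4924 response in PC3-shp14ARF minus that in PC3, was called for 5 members. It was negative for 4 members and positive for 1, where 17.1% of all genes were negative and 11.2% positive. For E2F1 the difference of log2 fold changes was −1.21 (SE 0.15, adjusted p = 0.000118) and for E2F2 −1.77 (SE 0.22, adjusted p = 0.000105). Their rise was therefore smaller in the p14ARF-depleted line, from a higher DMSO level to a similar treated level. For E2F4 the difference was −0.38 (SE 0.10, adjusted p = 0.0144) and for E2F6 −0.36 (SE 0.086, adjusted p = 0.00756). Both were of ordinary size, as the median absolute difference over all genes was 0.38. The signed median over all genes was −0.085, and 0.0072 after median-of-ratios rescaling. E2F5 had the positive value, 0.75 (SE 0.15, adjusted p = 0.00318), since its fall was shallower in PC3-shp14ARF.

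E2F7 (0.050, 95% interval −0.16 to 0.27), E2F8 (0.13, 95% interval −0.31 to 0.58), RB1 (0.12, 95% interval −0.14 to 0.37) and RBL1 (−0.25, 95% interval −0.50 to 0.003) did not pass, with adjusted p of 0.131 or more. E2F3 (0.31, adjusted p = 0.0858) did not pass either, but was called without MLN replicate 5 (0.38, adjusted p = 0.0457), without Both replicate 4 (0.40, adjusted p = 0.0234) and after median-of-ratios rescaling (0.41, adjusted p = 0.0142). The same scaling moved the positive share of all calls from 39.5 to 53.5% in this comparison, and the 5 calls above remained under it.

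Genes that act with the family were read from the same fits. Their lists were chosen with earlier results of these data known, and their counts are descriptions. With MLN4924 in PC3 the shares of all genes to set beside those counts were 32.2% higher and 29.4% lower. In PC3-shp14ARF they were 28.3% and 32.8%, and for shARF against Ctrl 21.0% and 20.4%. For Both against MLN they were 11.8% and 20.6%. In the difference of responses 11.2% of all genes were positive and 17.1% negative. List counts near these shares say little about the lists themselves. The DP partner TFDP1 fell by 0.57 on the log2 scale with MLN4924 in PC3 and by 1.02 in PC3-shp14ARF, and was 0.70 higher in shARF than in Ctrl (adjusted p = 0.000397). TFDP2 was at −0.15 without passing in PC3, fell by 0.44 in PC3-shp14ARF and was 0.17 higher in shARF, and TFDP3 was listed at 0 in all 12 libraries. RBL2, which encodes the third pocket protein p130, fell by 0.79 and 0.67 in the 2 lines, from 43.9 ± 1.43 to 25.4 ± 1.65 TPM in PC3 and from 40.4 ± 1.54 to 25.3 ± 1.81 TPM in PC3-shp14ARF. All 3 pocket protein genes were thus lower with MLN4924 in each line.

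Of the 8 genes for cyclins and kinases that phosphorylate RB1, 4 were higher and 2 lower with MLN4924 in PC3, and 5 were higher and 3 lower in PC3-shp14ARF. CCND1, the most abundant D-type cyclin gene under DMSO, fell from 308 ± 26.9 to 40.4 ± 0.336 TPM in PC3 (−2.92, SE 0.069, adjusted p = 2.78e-06) and from 317 ± 14.4 to 40.0 ± 0.491 TPM in PC3-shp14ARF (−2.98, SE 0.042, adjusted p = 6.68e-07). The cyclin E genes, which act later in G1 and are E2F targets, moved the other way. CCNE2 went from 5.37 ± 0.256 to 47.6 ± 4.93 TPM in PC3 and from 9.95 ± 0.884 to 56.4 ± 5.47 TPM in PC3-shp14ARF, and CCNE1 rose by 1.59 and 1.78. Their kinase CDK2 rose by 1.86 and 1.17 and was already 1.04 higher in shARF than in Ctrl. CDK6 fell by 0.82 and 0.21, CCND3 rose by 0.99 and 0.37, and CDK4 was at −0.064 without passing in PC3, fell by 0.25 in PC3-shp14ARF and was 0.60 higher in shARF. With MLN4924 the level of CCND3 was 60.3 TPM in PC3 and 42.1 TPM in PC3-shp14ARF. CCND2 was barely detected, at means of 0.029 to 0.23 TPM, and its call in PC3-shp14ARF (1.35, adjusted p = 0.00148) is 1 of the 5 counted as higher there.

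The MuvB core joins E2F4 and p107 or p130 in the DREAM repressor, and MYBL2 or FOXM1 in activating complexes later in the cycle. Of these 8 genes 5 were higher and 1 lower with MLN4924 in PC3, and 5 were higher and 2 lower in PC3-shp14ARF. MYBL2, an E2F target, rose from 73.2 ± 9.12 to 281 ± 55.1 TPM in PC3 and from 140 ± 8.24 to 272 ± 14.3 TPM in PC3-shp14ARF. MYBL1, LIN37, LIN52 and LIN54 also rose in both lines, by 0.33 to 1.28 in PC3 and by 0.59 to 0.75 in PC3-shp14ARF, and RBBP4 fell by 0.43 and 0.61. LIN9 did not pass in either, and FOXM1 was at −0.29 without passing in PC3 and fell by 0.45 in PC3-shp14ARF.

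Corepressors recruited by RB1 were divided. SIN3A (0.95 and 0.88) and SIN3B (0.52 and 0.55) rose with MLN4924 in PC3 and PC3-shp14ARF, while HDAC1 (−0.45 and −1.18) and HDAC2 (−0.25 and −0.35) fell. KDM5A fell in PC3 (−0.44) and was at −0.19 without passing in PC3-shp14ARF, where SUV39H1 fell (−0.55) after 0.076 without passing in PC3. The test of the difference between lines was passed by HDAC1 (−0.73) and SUV39H1 (−0.63) and not by KDM5A (0.25). ARID4A and ARID4B passed in neither. Among the 12 genes of the E2F6 polycomb complex, 3 were higher and 6 lower in PC3, led by PCGF6 (0.74), MAX (0.54) and RYBP (0.43) and by EHMT1 (−1.40), CBX3 (−0.74) and L3MBTL2 (−0.56). In PC3-shp14ARF 4 were higher and 6 lower, led by PCGF6 (0.39), RYBP (0.29) and YAF2 (0.26) and by EHMT1 (−1.30), EHMT2 (−1.19) and CBX3 (−1.02). PCGF6 thus rose with E2F6 in both lines, whereas L3MBTL2 (−0.56 and −0.84) and the histone methyltransferase EHMT1 fell in both.

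Of 4 genes whose products direct E2F family proteins to degradation, CDC20, an activator of the anaphase-promoting complex, fell from 163 ± 7.26 to 80.6 ± 8.71 TPM with MLN4924 in PC3 and from 209 ± 6.73 to 47.2 ± 2.38 TPM in PC3-shp14ARF. SKP2 fell by 0.34 and 0.60. CCNF fell by 0.37 in PC3-shp14ARF and was at −0.035 without passing in PC3, and FZR1 rose by 0.42 in PC3 and was at −0.056 without passing in PC3-shp14ARF. Some apoptosis genes are known as E2F1 targets. With MLN4924 in PC3, BBC3 rose by 1.31, BCL2L11 by 1.00, APAF1 by 0.31 and CASP8 by 0.25. In PC3-shp14ARF BCL2L11 rose (0.55), whereas BBC3 (0.092), APAF1 (0.036) and CASP8 (0.047) did not pass. The difference between lines was called for BBC3 (−1.22), BCL2L11 (−0.44) and APAF1 (−0.28), in each case negative, and TP73 was at or near 0 and not tested. Counting genes of this list that are not reported here, 4 of the 6 tested were called negative, and 2 under median-of-ratios scaling.

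The canonical G1/S targets of the activators were higher in shARF and, in PC3, with MLN4924, as E2F1 and E2F2 were. Of 38 such genes, 37 were higher in shARF than in Ctrl, none was lower, and the median log2 fold change was 1.08. The largest were GINS2 (1.69), DSCC1 (1.44) and ORC1 (1.41), which act in replication initiation and sister chromatid cohesion, and the smallest called were CASP8AP2 (0.34), CHEK1 (0.36) and POLA2 (0.44). With MLN4924 in PC3, 34 were higher and 3 lower (median 1.12). The leaders were CCNE2 (3.12), the licensing factor CDT1 (2.41) and the ribonucleotide reductase subunit RRM2 (2.30), and POLA1 (−0.68), UNG (−0.37) and CHEK1 (−0.25) fell. The promoter windows of these genes held the E2F letters in 21 of 44 entries (47.7%), against 3.31% of all windows. The list was chosen as known targets of the activators, so this share describes the list and is no independent support. Entries are windows, and their number differs from that of the genes.

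In PC3-shp14ARF MLN4924 split the same list, with 20 higher and 13 lower (median 0.30). CCNE2 (2.49), CCNE1 (1.78) and RRM2 (1.57) rose most, and UNG (−1.15), MCM5 (−0.78) and MCM4 (−0.71) fell most. The subunits of the replicative helicase, MCM2 to MCM7, were singled out after their values were seen. All 6 rose with MLN4924 in PC3 (0.20 to 0.80), all 6 fell in PC3-shp14ARF (−0.78 to −0.26) and all 6 were higher in shARF than in Ctrl (1.06 to 1.38). The difference between the lines' responses was negative for 34 of the 38 and positive for none (median −0.83), with MCM5 (−1.58), CDT1 (−1.55) and GMNN (−1.38) at the low end and DNMT1 (−0.38), RRM1 (−0.55) and CDC25A (−0.55) nearest 0 among those called. Between the treated lines 12 were higher in Both, led by POLA1 (0.74), BRCA1 (0.50) and ATAD2 (0.49), and TIPIN (−0.47) and CCNE1 (−0.26) were lower. That count ran from 7 to 20 higher over the alternatives, with 7 higher and 1 lower without MLN replicate 2 or Both replicate 2 and 8 higher and 1 lower without Both replicate 3.

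G2/M genes, which the DREAM complex represses and MYBL2 and FOXM1 activate, behaved differently from the G1/S list. With MLN4924 in PC3 4 of 20 were higher and 11 lower (median −0.33), and in PC3-shp14ARF 2 were higher and 14 lower (median −0.77). CDK1 rose in both lines (1.46 and 0.92), followed in PC3 by AURKB (0.53) and NDC80 (0.37), and in PC3-shp14ARF by KIF23 (0.21). The mitotic kinase PLK1 fell most (−2.02 and −2.89), with AURKA (−1.11) and KIF20A (−1.07) next in PC3 and CDC20 (−2.15) and KIF20A (−2.07) next in PC3-shp14ARF. Under DMSO 16 were higher in shARF and none was lower (median 0.40), led by BIRC5 (0.78), CDK1 (0.77) and TOP2A (0.76). The difference of responses was negative for 15 and positive for none, lowest for CDC20 (−1.13), KIF20A (−1.0) and PLK1 (−0.87), and the count was 11 under median-of-ratios scaling. Between the treated lines TOP2A (0.38) and TPX2 (0.32) were higher and CDC20 (−0.77), CCNB1 (−0.45) and AURKB (−0.30) lower. Those 2 higher and 3 lower of 20 were no more than the shares of all genes, 11.8% higher and 20.6% lower. They became 5 higher and 2 lower under median-of-ratios scaling, where 18.4% and 17.4% of all genes were called. The balance of directions thus depended on the scaling. Without MLN replicate 2 or Both replicate 2 none of the 20 was higher and 2 were lower. The CHR letters TTTGAA or TTCGAA lay in 12 of 17 windows of this list (70.6%), against 16.4% of all windows. This list too was chosen as known targets, so that share is a description and no independent support.

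**Figure D3:**
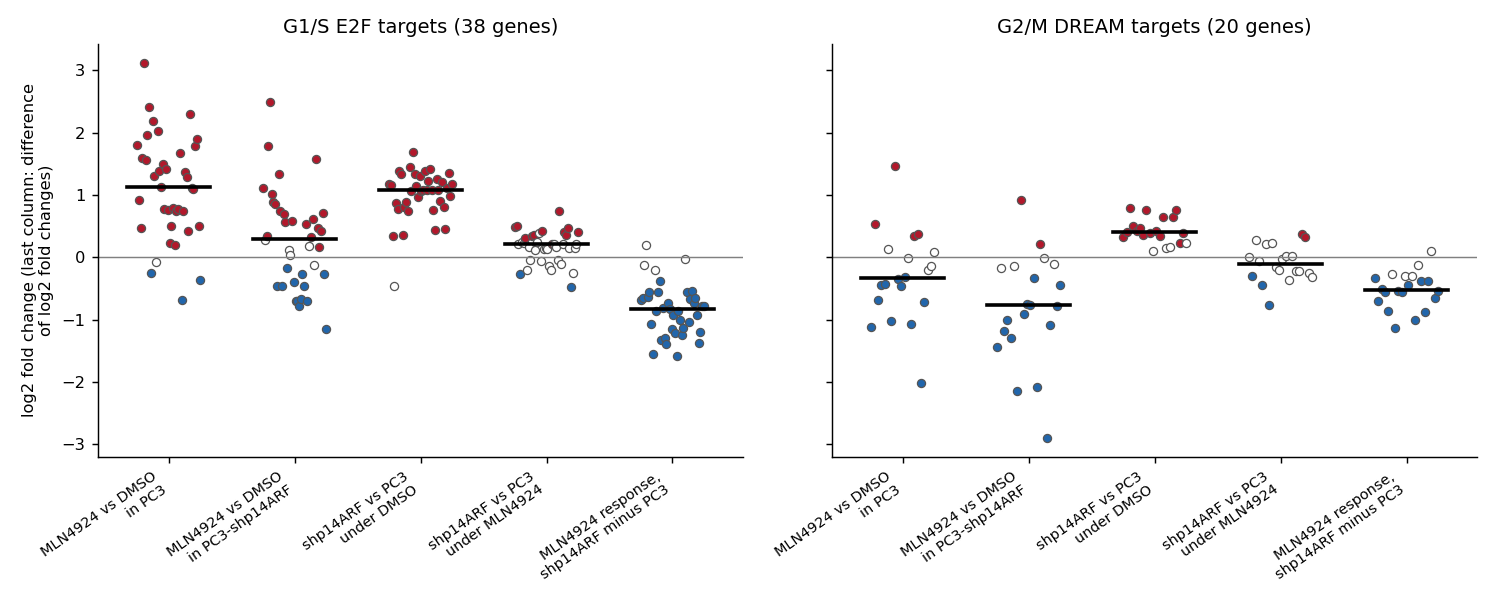
Log2 fold change (y axis) of each of 38 G1/S targets (left) and 20 G2/M targets (right) in the 4 comparisons and, last, the difference of MLN4924 responses between the lines, with a point per gene, filled where called and a bar at the median. The G1/S median was 1.12 with MLN4924 in PC3 and 0.30 in PC3-shp14ARF, and the G2/M medians were −0.33 and −0.77.

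The genes whose levels ran most like each member's over the 12 libraries were found by the root mean square difference of centred log2(TPM + 0.1) values, among the 14662 genes averaging 1 TPM or more. The points share their libraries and conditions, so this likeness is a description. CDT1 (0.122), RAD54L (0.156) and MYBL2 (0.170) were nearest to E2F1, where the median over all genes compared was 1.02. PKMYT1 (0.201) was nearest to E2F2, followed by GBP1 (0.231) and TBX2 (0.265). AURKA (0.0711) was nearest to RBL1, followed by EPB41 (0.0789) and WLS (0.0818), with AURKA at 125 ± 6.95 and 157 ± 2.51 TPM in Ctrl and shARF and at 57.8 ± 4.93 and 57.8 ± 3.30 TPM in MLN and Both. The nearest genes were SUDS3, SLC39A14 and CSNK1A1 for E2F3, ABCF3, EIF2B4 and PIH1D1 for E2F4, and NF1, CCDC113 and HEY1 for E2F5. They included C11orf98 and CEP55 for E2F6, and were TRIM38, CYSTM1 and CCDC14 for E2F7, EML6, BMP6 and WDR53 for E2F8, and OSBPL9, TMX4 and ANO6 for RB1.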

How the data were processed

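RNA-seq was available for 12 libraries of PC3 and PC3-shp14ARF cells, 3 per condition, and nothing in the labels or the study's methods said that the 3 came from separate cultures, so p-values measure the spread between these libraries, which may be technical. After adapter trimming, the authors aligned the reads to the hg38 genome in CLC Genomics Workbench with its defaults, quantified genes on an Ensembl annotation and deposited TPM. Whether counting used strand was not given in the sources used here. The study's DESeq2 fit needs counts, which were not used here. Instead log2(TPM + 0.1) was fitted by limma 3.58.1 (R 4.3.3, eBayes with trend) for the 19932 genes averaging 0.1 TPM or more across all 12 libraries. P-values were adjusted by Benjamini-Hochberg over all genes tested, with a threshold of 0.05 and 95% intervals from the same fit. Each pairwise comparison used its own 6 libraries, and the difference of MLN4924 responses used all 12. Fold changes on this scale understate those of low genes.

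The members and gene lists were chosen with earlier results of these data known. Named genes were all members, all genes of lists of up to 8, and of longer lists the 3 highest and 3 lowest called, together with the 3 nearest genes per member, except for a few genes that are not reported here. Positions and exon overlaps came from GENCODE release 44, promoters from RefSeq. Column headers carry replicate numbers, which were used as names only. The scripts were tested on simulated data. Alternatives were another pseudocount (1 or 0.01), another filter (1 TPM or none), median-of-ratios scaling, eBayes without trend, a replicate block, 12 libraries in one fit and leaving out each library. TPM keep no depth, so no counting error could be given.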

Additional observations from a re-analysis of the deposited data

Results flagged for a closer look

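The response to MLN4924 differed between PC3-shp14ARF and PC3 by a test of the difference itself (limma, adjusted over all genes) for 5 members. On the log2 scale, as the response in PC3-shp14ARF minus that in PC3, the difference was −1.21 for E2F1, −1.77 for E2F2, −0.38 for E2F4, 0.75 for E2F5 and −0.36 for E2F6. The adjusted p ran from 0.000105 for E2F2 to 0.0144 for E2F4. For E2F1 and E2F2 the libraries of the 2 lines were apart under DMSO and overlapped under MLN4924, and for E2F5 the lines were furthest apart under MLN4924. For E2F4 the difference was not called with a replicate block (−0.27, adjusted p = 0.181), and for the other 4 it was called under each alternative run. For E2F6 it ran from −0.42 to −0.27 over the alternatives, with an adjusted p of up to 0.0496, close to the threshold.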

How the results depend on the processing

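Of the 10 members, 9 were called with MLN4924 in PC3, with 7 to 9 over 14 alternatives and 9 in every fit that left out a library. In PC3-shp14ARF 9 were called (8 to 10 over 13, and 8 to 9 leaving out a library), for shARF against Ctrl 7 (6 to 7 leaving out a library) and for the difference of responses 5 (5 to 6 over 19). Over 10 same-numbered pairs the correlation of deviations from the condition means (14663 genes) ran from −0.147 to 0.0630, with none above 0.1. No values for differently numbered pairs are given beside these, so they cannot show whether the replicate numbers pair the libraries. With a replicate block for shARF against Ctrl the count was 0 for the members, 0 for the G1/S list and 0 for the G2/M list, with 0 genes called over the whole table. That fit leaves 1 residual degree of freedom. In it E2F8 reversed to −0.0020. With the block in PC3, E2F4 (0.44, adjusted p = 0.0996) and RB1 (−0.45, adjusted p = 0.0771) were no longer called, G1/S calls went from 37 to 26 and G2/M calls from 15 to 6, as the share of all genes called went from 61.6 to 28.6%. In the difference of responses G1/S calls went from 34 to 29 and G2/M calls from 15 to 8, as the share of all genes called went from 28.3 to 15.6%. No paired analysis was possible for Both against shARF or Both against MLN because each shares a single replicate number.

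For Both against MLN the 1 member called became 2 with a filter of 1 TPM, 3 with median-of-ratios scaling, 2 with 12 libraries in one fit and 1 to 3 leaving out a library. Over the alternatives E2F5 was always called (0.91 to 1.14). Median-of-ratios scaling reversed the uncalled values of E2F6 (0.017) and RBL1 (0.049). Leaving out a library also reversed uncalled values, which then ran from −0.071 to 0.069 for E2F1, from −0.026 to 0.075 for E2F7 and from −0.11 to 0.035 for RBL1. G1/S calls went from 14 to 9 without trend and ran from 8 to 16 leaving out a library. G2/M calls went from 5 to 8 (filter of 1 TPM), 3 (no filter), 3 (without trend) and 10 (12 libraries), and ran from 2 to 5 leaving out a library. The counts over the lists were alternatives added after seeing the data. The cause was not tested.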
